A study of Mus musculus with 9 samples.

Results

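The last step of reprogramming to established pluripotent cells was examined as 1 comparison of open chromatin, between cells sorted for SSEA-1 at day 16 (D16S+) and induced pluripotent stem cells (iPSCs). Overlapping accessibility peaks of each library on chromosomes 1 to 19 were merged into regions, and a region that shared at least 1 bp with a region of the other library was counted as common. A region called in iPSCs alone was counted as gained and a region called in D16S+ alone as lost. The comparison covered 72360 regions, against 205801 regions in any of the 9 ATAC-Seq libraries of the series, and each condition was 1 library, so that no spread between replicates was available and no test was made.

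The starting cells were mouse embryonic fibroblasts (MEFs) from E13.5 embryos that carry an IRES-EGFP cassette behind the stop codon of Pou5f1, the gene of Oct4. They received retroviral pMXs vectors that carry the c-Myc, Klf4, Oct4 and Sox2 cDNAs (OSKM), and both libraries share this background. D16S+ were cells positive for the surface antigen SSEA-1, sorted 16 days after OSKM. The iPSCs were labelled as fully reprogrammed and carry no sort or day in the labels. Their medium is a feeder-free medium by the labels, whereas the study's methods list media with LIF and either serum or serum replacement. How many iPSC lines were used is not given in the sources used here. The other 7 libraries, used here to look up where a region had been called before, were D0 (MEFs), D3, Thy-1-negative cells at day 6 and day 9 (D6T- and D9T-), SSEA-1-positive cells at day 12 (D12S+), and day 6 cells with siRNA against H3.3 or a non-targeting siRNA.

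ATAC-Seq uses a transposase that inserts sequencing adapters into DNA not covered by nucleosomes, so that active promoters and enhancers appear as peaks of tags. SSEA-1 is a carbohydrate antigen that appears on reprogramming cells before the endogenous pluripotency network is fully active, and an SSEA-1-positive population still contains cells at several stages. In late reprogramming the cells come to rely on their own Oct4, Sox2, Nanog and Esrrb in place of the viral factors, the naive pluripotency genes come under this network, and female cells reactivate their silent X chromosome. With bulk libraries, a region open in fewer cells and a region less open in each cell cannot be told apart.

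Sequences at the summits of the strongest changed regions outside repeated DNA are shown first, because the word counts below rest on such stretches. Each is 200 bases of mm9 around the highest summit, on the plus strand and 5′ to 3′, in which capitals mark the word CAAGGTCA (bound by Esrrb and Nr5a2, nuclear receptors of the pluripotency network) or its reverse complement. These are the 3 gained regions of highest pileup that hold this word, in an intron of Erlin1 (chr19:44123770-44123969), in an intron of A230004M16Rik (chr11:41639865-41640064) and 10638 bp from the start of Mesdc2 (chr7:91051474-91051673).
Erlin1: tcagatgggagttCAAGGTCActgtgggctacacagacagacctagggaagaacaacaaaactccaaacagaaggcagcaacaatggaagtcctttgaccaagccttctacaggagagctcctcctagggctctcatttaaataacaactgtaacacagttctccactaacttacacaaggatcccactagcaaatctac
A230004M16Rik: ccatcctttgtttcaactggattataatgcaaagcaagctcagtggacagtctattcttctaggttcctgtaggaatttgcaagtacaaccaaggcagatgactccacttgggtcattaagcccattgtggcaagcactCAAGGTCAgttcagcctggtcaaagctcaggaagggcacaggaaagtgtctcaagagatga
Mesdc2: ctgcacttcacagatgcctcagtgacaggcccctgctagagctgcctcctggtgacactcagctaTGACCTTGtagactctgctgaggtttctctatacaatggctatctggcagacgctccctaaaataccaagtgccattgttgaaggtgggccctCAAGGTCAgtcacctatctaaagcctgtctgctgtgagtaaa
In iPSCs their highest pileups were 32, 31 and 29 tags, in this order. None of the 3 was called in any of the other 8 libraries.

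Among the lost regions, the 3 of highest pileup that hold TGANTCA (the word of AP-1, the Fos and Jun family of factors that is highly active in fibroblasts) are given in the same way, with that word in capitals. They lie in an intron of 4922501L14Rik (chr3:154355288-154355487), 5957 bp from the start of Gm10282 (chr8:74834904-74835103) and in the promoter of Myt1l (chr12:30212373-30212572), a gene of neuronal differentiation.
4922501L14Rik: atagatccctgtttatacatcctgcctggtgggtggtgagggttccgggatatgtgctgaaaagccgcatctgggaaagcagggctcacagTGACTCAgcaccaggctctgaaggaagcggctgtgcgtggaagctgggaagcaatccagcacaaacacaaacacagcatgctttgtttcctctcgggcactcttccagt
Gm10282: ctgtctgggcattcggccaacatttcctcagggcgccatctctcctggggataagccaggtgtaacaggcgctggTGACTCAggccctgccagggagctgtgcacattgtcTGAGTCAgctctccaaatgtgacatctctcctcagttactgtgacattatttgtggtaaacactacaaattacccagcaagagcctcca
Myt1l: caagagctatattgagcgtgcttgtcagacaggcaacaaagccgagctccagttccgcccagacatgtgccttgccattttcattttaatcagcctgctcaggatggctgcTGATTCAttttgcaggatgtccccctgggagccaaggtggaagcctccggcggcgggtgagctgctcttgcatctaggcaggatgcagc
The 4922501L14Rik region reached 36 tags in D16S+ and was called in all 8 libraries other than iPSCs, with 24 tags at D0, 75 at D3, 132 in D6T-, 26 in D9T- and 41 in D12S+. The Gm10282 region had 35 tags in D16S+ and was absent from the D0 and D3 calls, and the Myt1l region had 32 tags. These stretches therefore held both a site already open in MEFs and sites first called from day 6.

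A pair of common regions shows the same words where both libraries had a call. The stretch 160101 bp from Tas2r134 (chr2:51322852-51323051) went from 18 tags in D16S+ to 40 in iPSCs, and the stretch in an intron of Mbnl2 (chr14:120702419-120702618), a gene of an RNA splicing regulator, from 41 tags to 13.
Tas2r134: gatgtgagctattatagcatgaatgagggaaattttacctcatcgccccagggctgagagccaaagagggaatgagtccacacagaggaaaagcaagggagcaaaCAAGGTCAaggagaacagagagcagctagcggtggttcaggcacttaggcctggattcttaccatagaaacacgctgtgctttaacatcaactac
Mbnl2: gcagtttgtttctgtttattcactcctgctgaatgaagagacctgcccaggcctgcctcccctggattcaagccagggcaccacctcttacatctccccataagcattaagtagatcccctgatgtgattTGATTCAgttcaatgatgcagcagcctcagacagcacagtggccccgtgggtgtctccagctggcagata
They are the common regions with the highest and the lowest ratio that held CAAGGTCA and TGANTCA, respectively, among unique common regions with at least 40 tags in a library, and thus were picked by their ratio.

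The libraries differed in ways that touch all of these counts. D16S+ had 21172835 tags and 48834 regions, and iPSCs 26580724 tags and 60527 regions. The lowest pileup called was 9 tags in D16S+ (0.425 CPM, tags per 1e+06 total tags) and 10 in iPSCs (0.376 CPM). The signal was spread differently, since 14.3% of D16S+ regions and 2.12% of iPSC regions reached 2 CPM. The iPSC library thus held more regions of lower height. Sequence that occurs more than once in mm9 was also unequal. At each summit, 7 words of 51 bases (the read length) were looked up in the genome, and 15.3% of D16S+ regions but 8.47% of iPSC regions had at least 1 word that was not unique. No unique word at all was found at 3.55% of D16S+ and 0.856% of iPSC regions (0.634 to 2.25% in the other 7 libraries), although ambiguously mapped reads are stated to have been removed. Counts of regions are therefore given over all regions and over those whose 7 words were all unique, called unique regions below.

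Of the 72360 regions, 33800 (46.7%) were common, 24622 (34.0%) were gained and 13938 (19.3%) were lost. The share with a partner was 71.5% for D16S+ (95% Wilson interval 71.1 to 71.9) and 59.3% for iPSCs (58.9 to 59.7), where intervals cover counting over regions and not the spread between cultures. When the 48834 regions of highest pileup were taken from both libraries, the gained and lost classes were close in size, at 16167 and 16604, beside 31176 common regions. Near equality of gained and lost regions is built in once the numbers of regions are equal, so this setting does not test their excess. Over unique regions there were 30094 common, 22792 gained and 9768 lost, which leaves out 29.9% of the lost class and 7.43% of the gained class.

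**Figure D1:**
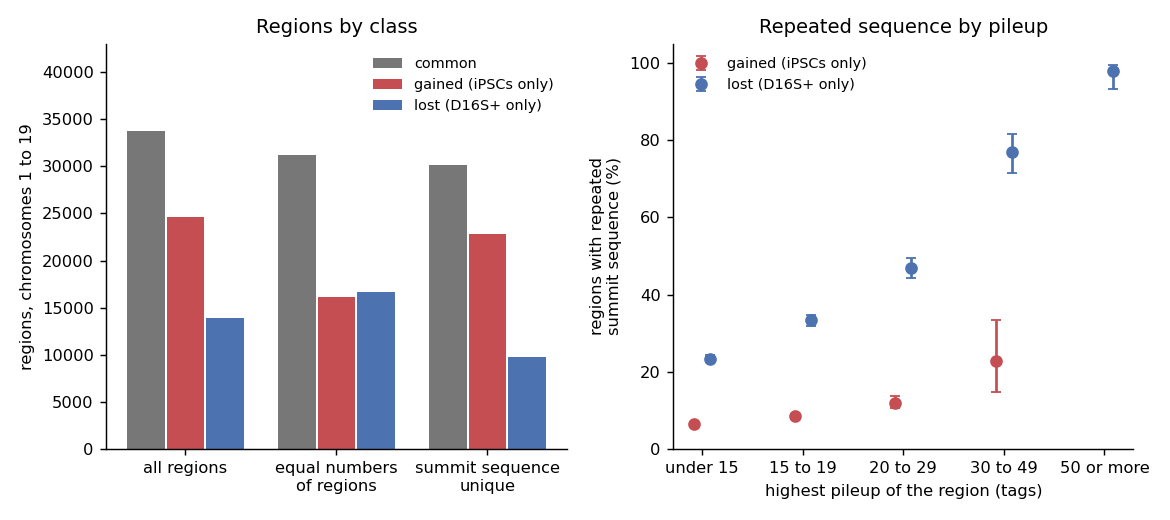
Left, the number of regions on chromosomes 1 to 19 that were common, gained or lost, for all regions, for equal numbers of regions and for regions with unique summit sequence. Right, the share of gained and lost regions with repeated summit sequence (percent, 95% Wilson interval) by the highest pileup in tags, which climbs to 98.1% of the lost regions with 50 tags or more, a height that no gained region reached.

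The strongest lost regions lay almost wholly in repeated sequence. The share of lost regions with a repeated summit word was 23.3% under 15 tags, 33.3% from 15 to 19 tags, 47.0% from 20 to 29, 76.9% from 30 to 49, and 98.1% (101 of 103) at 50 tags or more. Of those 103, 64 had no unique word. The same 103 places were called in 103 cases in D12S+, in 89 at D3 and in 82 in D6T-, but in 9 at D0, 9 in D9T- and 8 in each of the siRNA libraries, so their presence did not follow the days in order. The largest group lay between Ezh2, which encodes the histone methyltransferase of Polycomb complex PRC2, and Pdia4, a chaperone of the endoplasmic reticulum (chr6:47545340-47746141). There were 46 lost and 3 common regions and no gained region in that interval, and all 46 lost regions had repeated words. Its highest region (chr6:47706907-47709850) had 1117 tags at D3, 967 in D6T-, 687 in D12S+ and 888 in D16S+, and none was called at D0, in D9T- or in iPSCs. Among unique lost regions, the highest pileup was 59 tags. What part mapping has in the repeated regions was not tested.

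Common regions were broad and rich in CpG, and both changed classes were narrow and further from genes. The median width was 577 bp for common, 267 bp for gained and 266 bp for lost regions, with 9.84, 4.49 and 4.82 CpG per 200 bp. A common region spans the joined regions of both libraries, and wider regions overlap more readily. Part of the gap in width is therefore built in. Promoters, taken as the 3 kb upstream of a transcription start site (TSS), held 33.7% of common regions (33.2 to 34.2), 15.4% of gained regions (14.9 to 15.8) and 15.2% of lost regions (14.6 to 15.8). The changed classes differed from each other in their other places. Gene bodies held 50.6% of gained and 38.9% of lost regions, and intergenic DNA 34.0% and 45.9%. The median distance to the nearest protein-coding TSS was 11194 bp for gained regions and 19590 bp for lost regions. Over unique regions the gap was smaller, with 52.0% against 42.6% in gene bodies and 32.1% against 40.4% in intergenic DNA.

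The gained regions of highest pileup were spread over chromosomes, and 6 of the first 10 had been called in an earlier library. The promoter of Trim34b, of a family of antiviral TRIM proteins, had 44 tags in iPSCs (chr7:111447863-111448805) and was not called in any other library. An intergenic region 23535 bp from Myc, the proto-oncogene that is also 1 of the viral factors, had 40 tags (chr15:61842312-61842712) and likewise no call before iPSCs. By contrast, an intron region of Manbal (chr2:157201895-157202482) with 42 tags in iPSCs had 16 tags at D0, 34 at D3, 77 in D6T-, 18 in D9T- and 30 in D12S+, and lacked a call in D16S+ alone among these. The region near Hspe1, the mitochondrial co-chaperone gene (chr1:55165371-55165831, 38 tags in iPSCs), had 33 tags in D6T- and 12 in D12S+. Regions counted as gained therefore included places that were called early and not at day 16.

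The unique lost regions of highest pileup had mostly been open for long. A region 17.5 kb downstream of the TSS of Klf4 (chr4:55527557-55528207) had 18 tags at D0, 33 at D3, 46 in D6T-, 13 in D9T-, 26 in D12S+ and 47 in D16S+, with no call in iPSCs. The promoter of Adamts1, an extracellular metalloproteinase, had 47 tags at D3, 58 in D6T-, 21 in D12S+ and 47 in D16S+ (chr16:85804405-85804925). An intron region of Kcns3, a potassium channel subunit, had 21 tags at D0 and 47 in D16S+ (chr12:11156149-11156855). Of the 10 strongest, 3 were called at D0 and all 10 in D12S+. The highest of them, 512933 bp from Gm10029 (chr13:7174844-7175396), had 22 tags in D12S+ and 59 in D16S+ and was called on neither of the days 0 to 9.

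Lost regions had been called in an earlier library more often than gained regions. At least 1 of the libraries D0 to D12S+ had a region at 68.3% of lost (67.6 to 69.1), 46.1% of gained (45.5 to 46.7) and 90.3% of common regions. Over unique regions the shares were 72.9%, 47.5% and 92.2%. At D0 the shares were 15.0% of gained and 19.6% of lost regions, in D6T- 29.9% and 49.8%, and in D12S+ 18.1% and 44.6%. None of the other 7 libraries had a region at 53.6% of gained and 31.5% of lost regions. The order did not rest on the weakest calls, since among unique regions with 20 tags or more 794 of 1445 gained (54.9%) and 717 of 797 lost regions had an earlier call. D9T- gave the lowest shares in all classes (5.91% of gained and 15.5% of lost regions) and had the lowest totals of the 9 libraries, 13213117 tags and 35811 regions.

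**Figure D2:**
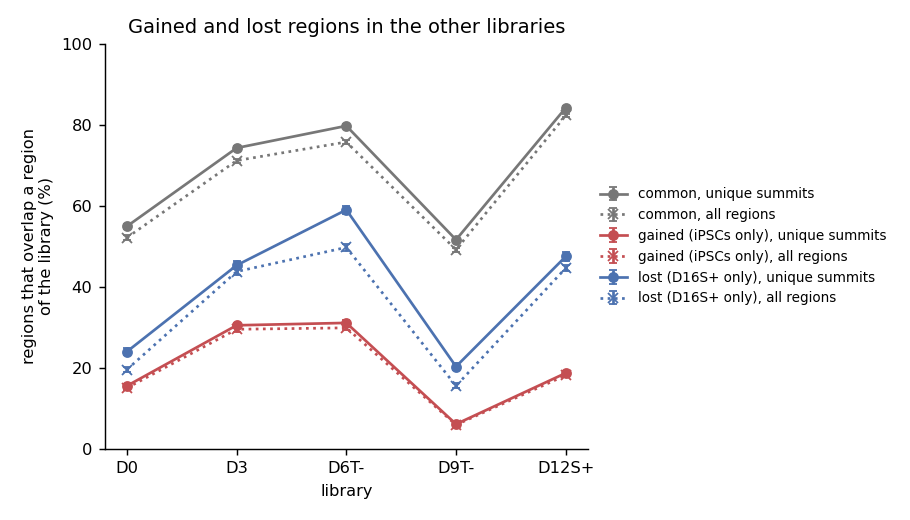
Share of common, gained and lost regions (percent, 95% Wilson interval) that overlap a region of D0, D3, D6T-, D9T- or D12S+, over unique summits (solid) and all regions (dotted). Lost regions lie above gained regions in each library, with 44.6% against 18.1% of all regions in D12S+.

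Short words of 12 transcription factor families were searched on both strands in the 200 bases around each summit, without removing overlaps between words. A match describes letters in a window and not a bound site. Outside promoters and over unique regions, the word of Esrrb and Nr5a2 (CAAGGTCA), shown above, was in 2.67% of gained (2.45 to 2.91), 1.43% of lost (1.19 to 1.71) and 1.69% of common regions, and in 2.05% of all regions of this length. It became more frequent with height among gained regions within or outside promoters, at 2.41% under 15 tags, 2.92% from 15 to 19 and 3.81% (2.94 to 4.92) at 20 or more. In lost regions the same steps gave 1.55%, 1.04% and 0.878% (0.426 to 1.80). The AP-1 word (TGANTCA) was in 10.1% of lost (9.49 to 10.8), 7.18% of gained (6.82 to 7.55) and 7.04% of common regions, and in 7.64% of all. Over all regions, promoters and repeated sequence included, CAAGGTCA was in 2.71% of gained and 1.30% of lost regions, and TGANTCA in 6.83% and 8.17%. Gained and lost regions thus differed in these words by more than their counting intervals, in opposite directions.

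The words of Oct4, of Klf and of Runx factors also separated gained from lost regions. The octamer of Oct4 (ATGCNAAT) was less frequent in gained regions, at 2.91% (2.68 to 3.15), than in lost regions, at 4.11% (3.70 to 4.56), or common regions, at 4.55%. Its share rose with height in both changed classes, within or outside promoters, at 2.25%, 3.33% and 4.64% (3.67 to 5.85) of gained and 3.40%, 4.27% and 5.27% (3.92 to 7.05) of lost regions over the same steps, so that the intervals of the classes overlapped at 20 tags or more. The word of Klf factors (GGGNGTG) was in 23.8% of gained and 20.4% of lost regions, and that of Runx factors (TGTGGT) in 15.9% and 14.2%. The intervals of gained and lost regions overlapped for Sox factors (CATTGT, 10.7% and 11.2%), Tead (GGAATG, 13.8% and 13.3%), CTCF (CCACNAGNG, 5.80% and 6.06%), Ets (CCGGAAG, 2.42% and 1.97%), NF-Y (CCAAT, 21.3% and 21.5%), Stat (TTCCNGGAA, 0.944% and 0.839%) and Tfap2 (GCCNNNGGC, 9.53% and 9.99%). Common regions held the Ets word in 4.60% and the Tfap2 word in 13.9%, above both changed classes. The shares over all regions of the 3 classes were 3.24% for Ets, 11.4% for Tfap2, 3.80% for the octamer, 23.9% for Klf, 14.1% for Runx, 10.6% for Sox, 13.1% for Tead, 6.25% for CTCF, 22.0% for NF-Y and 0.871% for Stat.

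**Figure D3:**
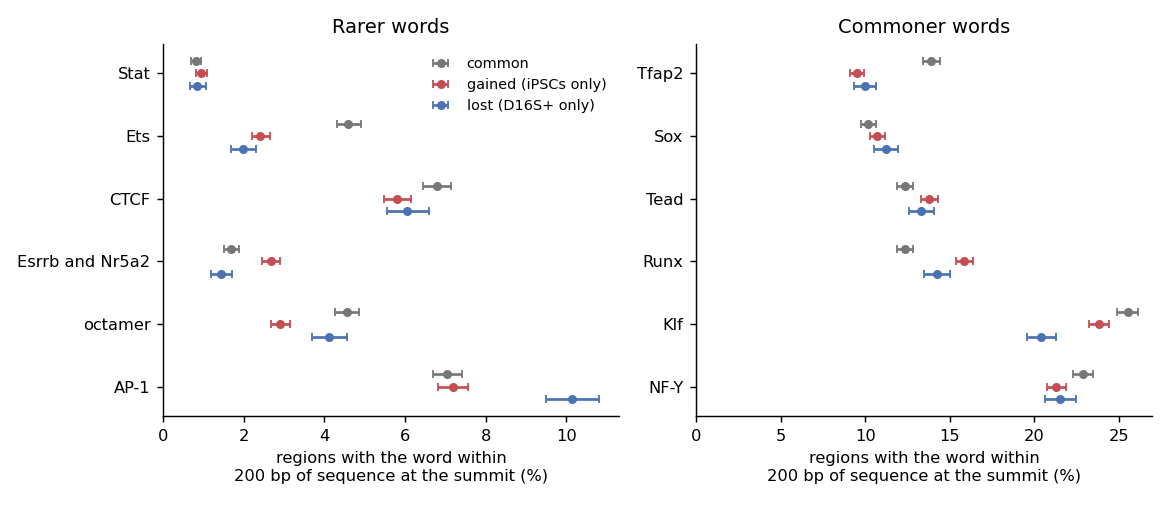
Share of common, gained and lost regions outside promoters with unique summits that hold each of 12 words in 200 bp around the summit (percent, 95% Wilson interval), with rarer words on the left and commoner words on the right. Gained regions stand apart for the Esrrb and Nr5a2 word (2.67%) and lost regions for the AP-1 word (10.1%).

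At common regions the signal was lower in iPSCs. The median log2 ratio of pileup in CPM, iPSCs over D16S+, was −0.47 (quartiles −0.88 and −0.08), and 20.9% of the 33800 regions were higher in iPSCs, with a median of −0.48 and 20.5% over unique regions. The ratio depended on height, with a median of 0.05 under 15 tags in D16S+, −0.33 from 15 to 19, −0.55 from 20 to 29, −0.83 from 30 to 49, −1.09 from 50 to 99 and −1.27 at 100 or more, where the bins are set on the denominator of the ratio. Promoters, at −0.71, lay below other common regions by 0.38 on the log2 scale, a gap that shrank to a difference of −0.00295 within bins of equal height. Single regions are therefore read below against the median. Common regions at least 2-fold above it numbered 1248, or 3.69%, and those at least 2-fold below it 1610, or 4.76%.

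Among common regions outside promoters, those with the highest ratios differed in their words from those with the lowest. In the highest 10% (1937 unique regions), CAAGGTCA was found in 3.36% (2.64 to 4.25), the octamer in 5.94% (4.97 to 7.08) and the Sox word in 14.7% (13.2 to 16.4). In the lowest 10% (1931 regions) the shares were 0.829% (0.511 to 1.34), 3.11% (2.42 to 3.98) and 6.84% (5.79 to 8.05). Over all 19251 such regions they were 1.69%, 4.55% and 10.2%. The words of Tead (16.4% and 7.92%) and Runx factors (15.0% and 9.32%) were also more frequent in the highest than in the lowest 10%. The Ets word went the other way, with 2.84% and 9.27%. The AP-1 word had overlapping intervals, at 7.18% (6.11 to 8.41) in the highest and 6.42% (5.41 to 7.60) in the lowest 10%. The ratio moves with height, as given above, and the part of height in these shares was not tested.

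The common regions with the largest ratios, chosen for this and listed without a test, were intergenic in 6 of the first 10 cases, in introns in 2 and in promoters in 2. An intergenic region 1018739 bp from Amy2a5 (chr3:112042590-112043070) had 10 tags in D16S+ and 57 in iPSCs, a log2 ratio of 2.18 (exact binomial interval 1.20 to 3.32, counting error only). The gained region chr3:112045822-112046364 beside it, with 43 tags, was also among the 10 strongest gained regions, and neither was called in the other 7 libraries. An intron region of Eftud1, a GTPase of ribosome maturation, had 16 tags at D0, 31 at D3, 21 in D6T-, 13 in D12S+, 15 in D16S+ and 84 in iPSCs (chr7:89919500-89920666, log2 ratio 2.16, 1.35 to 3.06). An intron region of Gcnt2, a glycosyltransferase, had 10 tags in D16S+ and 42 in iPSCs (1.74, 0.72 to 2.90). At the other end over unique regions, the promoter of Pax6, a neural and eye regulator, had 71 tags in D16S+ and 17 in iPSCs in the region chr2:105514671-105515930 (−2.39, −3.25 to −1.61). The promoter of Arrdc3 had 97 and 22 tags (−2.47, −3.21 to −1.79), and a region of Npm1, the nucleolar phosphoprotein, 106 and 26 (−2.36, −3.03 to −1.73). The Npm1 region spanned a TSS of the gene and counted as intronic because its midpoint lay 195 bp from that TSS, inside the gene. Without the limit to unique regions the 10 lowest ratios ran from −4.42 near Aldh9a1 to −2.90 at Ank3.

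The labels were read against marker promoters. All 8 pluripotency markers (Pou5f1, Sox2, Nanog, Esrrb, Zfp42, Tdgf1, Fgf4 and Utf1) had a promoter region in D12S+, D16S+ and iPSCs, with a summed pileup of 38.9 CPM in D16S+ and 23.0 CPM in iPSCs, and at D0 3 of 8 had one. Pou5f1 alone made up 26.3 CPM and 14.4 CPM of these sums, and it had 13.1 CPM at D0. Its highest summits in D16S+ and iPSCs lay outside its coding exons, inside which the values were 17.2 and 3.72 CPM. They fell in 1 wide common region (chr17:35634607-35652127). The start of any annotated transcript counted, and in D16S+ and iPSCs the Esrrb region lay 140.9 kb from the start of the gene. Of 8 fibroblast markers, 6 had a region in D16S+ (5.48 CPM, without Col3a1 and Postn) and 4 in iPSCs (2.71 CPM), where Col1a2, Col3a1, Prrx1 and Postn lacked one. At D0, in MEFs, it was likewise 6 of 8 (4.60 CPM, without Col3a1 and Prrx1). These markers thus did not set D16S+ apart from MEFs. Markers of other cell types had regions too, with 8 of 10 for primitive endoderm in D16S+ and 9 in iPSCs, 6 and 7 of 8 for trophoblast, 7 and 7 of 7 for neural cells, and 4 and 5 of 7 for blood, in which Ptprc and Spi1 (listed as Sfpi1 in the annotation) had none. These are calls of open promoters and not measures of expression, and what other cells add to either library was not tested.

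Over 21260 protein-coding genes, 12981 had a promoter region in both libraries, 884 (4.16%) in iPSCs alone and 607 (2.86%) in D16S+ alone. The median log2 ratio over the 12981 was −0.84. At least 2-fold above that median were 509 genes (3.92%), and at least 2-fold below it 251 (1.93%). With equal numbers of regions 645 genes had a region in iPSCs alone and 882 in D16S+ alone, so that the direction of this excess followed the number of regions. The lists below, of 7 to 32 genes, are set beside these shares.

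Genes of the germline stood out by calls in iPSCs alone. Of 16 listed, 7 had a promoter region in iPSCs alone (background 4.16%), 4 in both libraries, 5 in neither and none in D16S+ alone. With equal numbers of regions it was 6 in iPSCs alone and 1 in D16S+ alone (background 3.03% and 4.15%). The list was chosen with earlier results of these data known, so these counts are a description and not independent support. The 7 were Ddx4 (the germ cell RNA helicase Vasa, 16 tags), Tdrd1, Piwil2 and Mov10l1 (members of the piRNA pathway, which silences transposons, with 12, 15 and 15 tags), Stk31 (a Tudor domain protein of testis, 14 tags), and Hormad1 and Syce1 (proteins of meiotic chromosome axes and synapsis, 19 and 16 tags). All 7 had unique summits, 9 to 263 bp from a TSS. Each held 8 to 31 CpG in the 200 bases around the summit, against a median of 4 in the 3790 gained promoter regions (quartiles 2 and 7), which lie anywhere in the 3 kb upstream of a TSS. Common regions averaged 9.84 CpG per 200 bp, so that Piwil2, Syce1, Hormad1 and Mov10l1, with 8 to 11, lay near that mean.

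With 12 to 19 tags, the 7 stood near the lowest pileup called in iPSCs, 10 tags, and their calls elsewhere varied. Ddx4, Stk31, Hormad1 and Mov10l1 had no promoter region in any of D0 to D16S+, whereas Tdrd1 had 22 tags at D0 and 20 in D6T-, Syce1 had 12 at D0, and Piwil2 had 11 in D12S+. The parts of these 4 summit windows that no annotated exon covers are printed with CG in capitals, to show how their CG density varied. They are at chr13:113442519-113442672 for Ddx4, chr6:49345439-49345602 for Stk31, chr3:95363324-95363523 for Hormad1 and chr15:88812976-88813175 for Mov10l1, on the plus strand of mm9.
Ddx4: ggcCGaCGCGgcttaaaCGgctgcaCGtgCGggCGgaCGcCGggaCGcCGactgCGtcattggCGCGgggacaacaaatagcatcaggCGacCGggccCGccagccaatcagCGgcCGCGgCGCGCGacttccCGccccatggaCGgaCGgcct
Stk31: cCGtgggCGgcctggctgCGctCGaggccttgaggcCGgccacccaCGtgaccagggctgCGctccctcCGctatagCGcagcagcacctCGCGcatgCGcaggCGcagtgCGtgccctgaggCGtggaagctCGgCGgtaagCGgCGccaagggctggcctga
Hormad1: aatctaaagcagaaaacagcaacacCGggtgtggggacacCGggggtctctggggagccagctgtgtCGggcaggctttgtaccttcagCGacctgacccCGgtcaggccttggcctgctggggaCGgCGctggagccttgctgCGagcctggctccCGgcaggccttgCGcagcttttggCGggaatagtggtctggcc
Mov10l1: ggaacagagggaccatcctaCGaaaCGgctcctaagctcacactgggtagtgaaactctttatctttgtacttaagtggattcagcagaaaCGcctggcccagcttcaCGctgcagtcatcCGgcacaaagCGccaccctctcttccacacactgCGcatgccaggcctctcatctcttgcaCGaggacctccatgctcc
The stretches hold 26, 19, 11 and 8 CG, in this order. Germline genes with a region in both libraries were Dazl (54 tags in D16S+ and 36 in iPSCs), Brdt (45 and 30), Mael (20 and 16) and Sycp3 (13 and 11), and Dazl and Brdt had regions in all 5 earlier libraries. For Mael and Sycp3, D16S+ was the first of these days with a call.

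**Figure D4:**
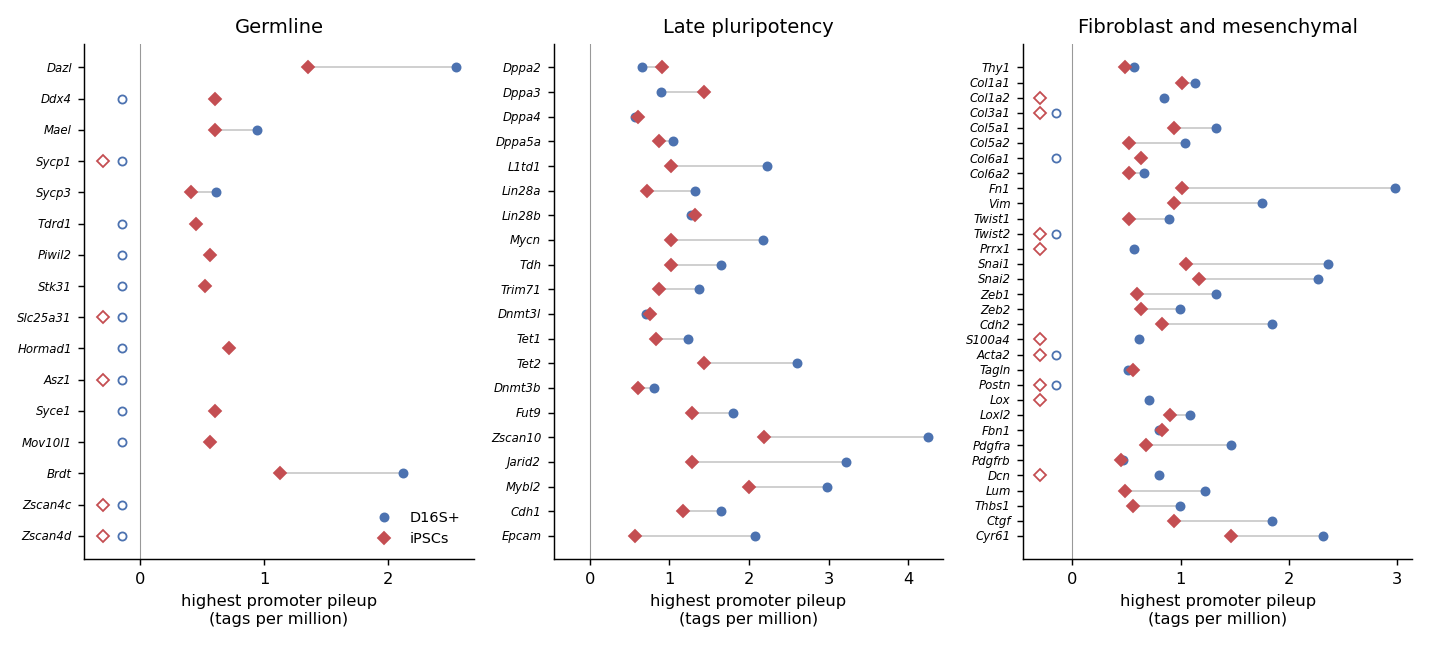
Highest promoter pileup (CPM) of each gene of the germline, late pluripotency and fibroblast lists in D16S+ (circles) and iPSCs (diamonds), 1 library each. Open symbols left of 0 mark genes with no region called in that library: 7 germline genes lack a region in D16S+ alone, and 5 fibroblast genes lack one in iPSCs alone.

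Genes of naive pluripotency were open in both libraries, and their ratios lay around and above the gene median of −0.84. Of 23, 21 had a region in both, Gbx2, a homeobox gene of LIF-dependent self-renewal, had one in iPSCs alone (10 tags, the lowest value called), and Prdm14, a regulator of DNA methylation, in neither. The list median was −0.54, and 8 of the 21 lay below the gene median. Pou5f1 had 416 tags at D0, 747 at D3, 557 in D16S+ and 383 in iPSCs (−0.87, −1.06 to −0.68), Klf4 52 and 32 (−1.03, −1.71 to −0.37), Sox2 37 and 32 (−0.54, −1.27 to 0.18) and Esrrb 34 and 34 (−0.33, −1.06 to 0.40). Of these only Pou5f1 and Klf4 had an interval below 0, and the intervals of all of these genes included the gene median of −0.84. The Esrrb region lay 140.9 kb from the start of the gene, at another transcript start. The nearest regions to the gene start were gained ones at −16.8 and 7.1 kb. Nanog, the homeodomain factor that marks the stable network, had 15 tags in D12S+, 28 in D16S+ and 16 in iPSCs (−1.14, −2.12 to −0.20), and Zfp42 (Rex1) had 23, 61 and 40 (−0.94, −1.55 to −0.34). Tcl1, an activator of Akt, was highest in ratio, with 14 tags in D16S+ and 27 in iPSCs (0.62, −0.36 to 1.66) and no earlier call. With promoters of 1 kb upstream to 100 bp downstream the highest ratio of this list was 0.11.

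Viral cDNA can contribute tags at exons of the 4 factors, and the summits inside their coding exons are therefore given apart. In Pou5f1 (chr17:35642982-35647721) the highest such summit was 5.04 CPM at D0, 24.7 at D3, 17.2 in D16S+ and 3.72 in iPSCs. Sox2 had none at D0 and then 12.4, 1.23 and 0.790 CPM, Klf4 had 0.631, 15.6, 3.07 and 2.26 CPM, and Myc had 0.347, 8.37, 1.18 and 0.715 CPM. All 4 were highest at D3. From D16S+ to iPSCs, Pou5f1 was lower by more than the gene median ratio of −0.84, whereas the ratios of Sox2, Klf4 and Myc were not below that median. How many of these tags came from a vector was not tested.

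With promoters of 3 kb, the late pluripotency list held the highest ratio of any listed gene, and also 1 of the lowest. With promoters of 1 kb upstream to 100 bp downstream its highest ratio was 0.09, below 0.33 in the primed epiblast list and 0.30 in the AP-1 list. All 20 late pluripotency genes had regions in both libraries, with a list median of −0.57, and 7 lay below the gene median. Dppa3 (Stella, which protects maternal DNA methylation) had 19 tags in D12S+, 19 in D16S+ and 38 in iPSCs (0.67, −0.16 to 1.55). Dppa2, which with Dppa4 forms a chromatin complex at bivalent promoters, had 14 and 24 (0.45, −0.56 to 1.51) and no earlier call, and Dppa4 had 12 and 16. The intervals of Dppa3, Dppa2 and Tcl1 all include 0 and lie above the gene median of −0.84. At like height in D16S+, common promoter regions had a median of 0.03 under 15 tags, as for Dppa2 and Tcl1, and of −0.33 from 15 to 19 tags, as for Dppa3. Dppa5a had 22 and 23 tags, Tdh, threonine dehydrogenase, 35 and 27, Fut9, whose enzyme makes the SSEA-1 epitope, 38 and 34 (−0.49, −1.20 to 0.22), and Cdh1, E-cadherin, 35 and 31 (−0.50, −1.25 to 0.24). The Tdh region lay 8.7 kb from the start of the gene, and the region at that start had 22 and 18 tags. Epcam, an epithelial adhesion molecule, had 27 tags in D12S+, 44 in D16S+ and 15 in iPSCs (−1.88, −2.83 to −1.01).

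Genes of the primed epiblast, the state after implantation, split between the libraries. Of 14, 8 were in both, Foxd3, Fgf8 and Mixl1 in iPSCs alone (15, 19 and 18 tags) and Fgf5 in D16S+ alone (25 tags). Fgf5, a growth factor of the primed state, had 13 tags at D0, 19 at D3, 35 in D6T- and 15 in D12S+. Mixl1, a regulator of mesendoderm, had no call in another of the time course libraries, and Foxd3 and Fgf8 had 14 and 13 tags at D3. The promoter calls of this list thus did not move in 1 direction.

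Fibroblast and mesenchymal genes were the list with the largest share in D16S+ alone. Of 32, 5 had a region in D16S+ alone (background 2.86%), 1 in iPSCs alone, 22 in both and 4 in neither. The 5 were Col1a2 (18 tags), Dcn (17) and Lox (15) of the extracellular matrix, S100a4 (13), a calcium-binding marker of fibroblasts, and Prrx1 (12), a mesenchymal homeobox gene. All but Prrx1 had regions at D0 (16, 15, 31 and 33 tags). Col6a1, a collagen of the matrix, had 18 tags at D0 and 17 in iPSCs and no call in D16S+. With equal numbers of regions 7 were in D16S+ alone (background 4.15%). Other mesenchymal promoters were called in both libraries, among them Thy1, the surface antigen used in the day 6 and day 9 sorts (12 tags in D16S+ and 13 in iPSCs), Col1a1 (24 and 27), Twist1 (19 and 14), and Fn1, fibronectin (63 and 27, −1.55, −2.26 to −0.88).

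Epithelial genes were called in both libraries in 20 of 22 cases, and Krt7 (14 tags) and Ovol1 (12 tags) in iPSCs alone. The list median was −0.92, close to that of all genes. Esrp1, an epithelial splicing regulator, had 55 tags in D12S+, 59 in D16S+ and 25 in iPSCs (−1.57, −2.30 to −0.87), and Ocln, occludin, had 42 and 18 (−1.55, −2.44 to −0.72). Cldn6, a claudin of embryonic epithelium, had 25 and 35 (0.16, −0.62 to 0.96). Housekeeping genes gave the lowest median, −1.26, with 9 of 12 below the gene median. Gapdh had 68 tags in D16S+ and 30 in iPSCs, and Hsp90ab1 42 and 37. Common promoter regions had a median of −0.85 from 30 to 49 tags in D16S+ and −1.09 from 50 to 99. The part of height in the housekeeping median was not tested.

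Of 16 Wnt effectors and targets, 13 were in both libraries, and Dkk1, a secreted Wnt inhibitor (16 tags), and Cdx1 (12 tags) in D16S+ alone. Sp5 had 14 and 21 tags (0.26, −0.79 to 1.34), Axin2 39 and 29 (−0.76, −1.50 to −0.03) and Lef1 24 and 24. Of 12 AP-1 subunit genes, 11 were in both and Batf in neither, with a median of −0.92. Fos had 61 tags in D16S+ and 25 in iPSCs (−1.62, −2.35 to −0.92), Jun 145 and 70 (−1.38, −1.81 to −0.96), and Fosl1 13 and 20 (0.29, −0.79 to 1.42). Of the 11, 6 lay below the gene median, and Jun was near the median ratio of −1.27 at common regions with 100 tags or more.

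Around single genes the balance of gained and lost regions differed widely. Within 50 kb of all protein-coding genes, 66.9% of changed regions were gained (71.9% over unique regions). Esrrb had 10 common, 14 gained and 1 lost region, and 7 of its 10 common regions were higher in iPSCs. Those 7 had 11 to 16 tags in D16S+, and each of their intervals included 0. Of all common regions, 53.8% were higher in iPSCs under 15 tags in D16S+ and 24.8% from 15 to 19 tags. Nanog had 12 common, 4 gained and 4 lost regions, and all 12 common regions were lower in iPSCs, as were most common regions (20.9% of all were higher), with 2 of the 12 above the median of all common regions. Pou5f1 had 12 gained and 1 lost region, Cdh1 9 and 1, Sox2 1 and 3, and Klf4 0 and 2. Over the lists the gained share was 75.2% (66.8 to 82.0) around late pluripotency genes, 71.8% (63.9 to 78.6) around naive genes, 79.8% (71.9 to 86.0) around Wnt genes, 78.8% (68.6 to 86.3) around AP-1 subunit genes and 59.8% (50.1 to 68.8) around fibroblast genes. It was 84.0% around blood, 73.5% around primitive endoderm, 72.2% around housekeeping, 69.8% around epithelial, 69.0% around trophoblast, 68.1% around neural, 65.7% around germline and 63.4% around primed epiblast genes. The share over all genes lay within the intervals of the naive and fibroblast lists and just inside that of the late list, whose lower bound was 66.8%.

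The X chromosome, left out of the counts above, was the chromosome with the most one-sided change. It held 655 common, 108 gained and 776 lost regions, so that 87.8% of its changed regions were lost (85.5 to 89.8). On chromosomes 1 to 19 this share was 36.1%, from 23.2% to 48.4% for single chromosomes. Over unique regions it was 82.2% on X (80 gained and 369 lost) and 30.0% on the autosomes (20.5 to 43.0%). The gap between X and autosomes was thus of like size with and without regions of repeated sequence.

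The signal at common X regions was lower in the same direction. Their median log2 ratio was −0.97 (order-statistic interval −1.02 to −0.91), against −0.42 on chromosome 11 to −0.55 on chromosome 13, and relative to the autosomes it was 1.42-fold lower (1.48-fold over unique regions). Within bins of equal D16S+ height the X medians were lower by 0.16 to 0.41 on the log2 scale. X regions made up 2.87% of all D16S+ regions (2.73 to 3.02) and 1.30% of iPSC regions (1.22 to 1.40). The share was 1.20% at D0, 1.84% at D3, 2.33% in D6T-, 1.73% in D9T- and 2.30% in D12S+, so that D16S+ was the highest and D0 and iPSCs the lowest of the series. Over unique regions D16S+ (2.21%) was close to D6T- (2.17%), with D12S+ at 1.86%. D0 (0.999%) and iPSCs (1.19%) remained the lowest. Of the 776 lost X regions, 370 were called in D12S+, 329 in D6T-, 358 at D3 and 113 at D0. For the 13938 lost regions of chromosomes 1 to 19 the shares were 44.6%, 49.8%, 43.8% and 19.6%, in this order. The lost X regions thus did not stand out by more earlier calls. The Y chromosome had 9 regions in D16S+ and 5 in iPSCs. The sex and the X copy number of the cells of each library are not given in the labels, and number of X copies, activity of the X and composition of the cultures cannot be told apart here.

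**Figure D5:**
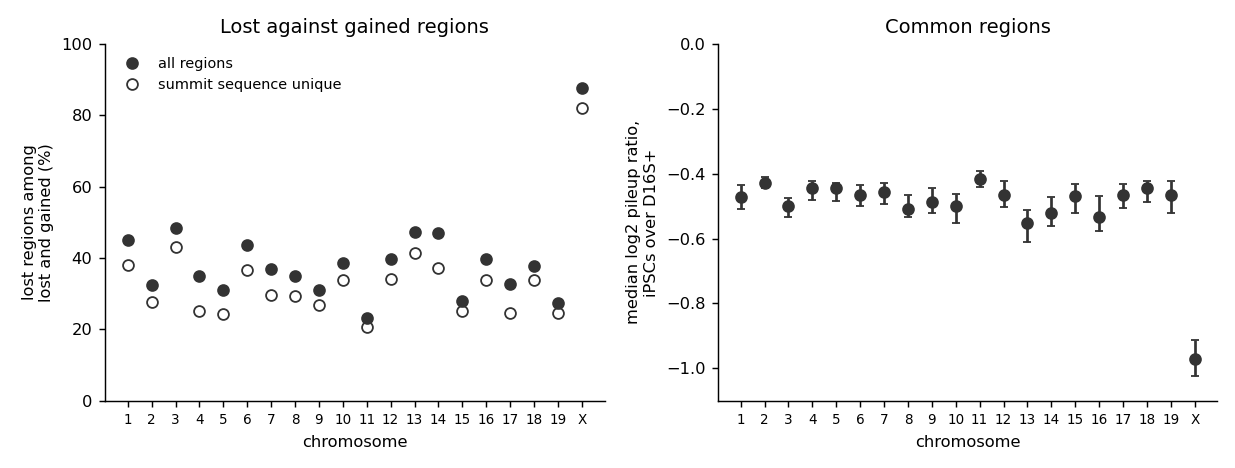
Left, lost regions as a percentage of lost and gained regions on each chromosome, for all regions (filled) and unique summits (open). Right, median log2 pileup ratio at common regions, iPSCs over D16S+, with the 95% order-statistic interval. X lies at 87.8% and −0.97, outside the range of the 19 autosomes in both.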

How the data were processed

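The authors mapped the ATAC-Seq reads to mm9 with STAR, removed duplicates with Picard, removed mitochondrial and ambiguously mapped reads, and called peaks per library with MACS2 2.1.0.20151222 without a control. Per the file headers, the q-value cutoff was 0.05, tags were 51 bp long and were extended to 200 bp. The deposited signal of each peak is the pileup at its summit in tags, beside a fold enrichment, a ratio that follows from pileup and background. The numbers of tags were 13213117 to 31714845 per library.

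Peaks that overlap were merged per library on chromosomes 1 to 19, and each region kept its highest pileup, also given as CPM, tags per 1e+06 total tags of the header. With 1 library per condition no test was made. Shares carry 95% Wilson intervals over regions, medians order-statistic intervals, and single ratios exact binomial intervals of the tag numbers given their sum, all for counting error alone. Genes came from GENCODE vM1 (37310 genes, of which 21260 protein-coding on chromosomes 1 to 19), with 3 of the listed genes found under older symbols. Summit uniqueness was computed from mm9 with 7 words of 51 bases per summit, and the code was tested on simulated data. A few genes and regions were named by rule: in each of 13 lists the genes called in 1 library alone and the 4 of highest promoter pileup, 14 genes chosen always, the 10 gained and 10 lost regions of highest pileup, and the 10 highest and 10 lowest ratios among common regions with at least 40 tags. Where the text names a list gene outside this rule, or a word, it was chosen with its values known. The comparison, lists and words were chosen with earlier results of these data known. Alternatives were equal numbers of regions, stricter peaks, 1 common floor, other overlaps, other promoters, other windows and chromosomes X and Y. Those on unique sequence and on height bins were chosen after seeing the data. Python 3.11.15 with numpy 2.4.6, pandas 2.3.3 and scipy 1.17.1 was used.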

Additional observations from a re-analysis of the deposited data

How the results depend on the processing

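No paired analysis was possible because each condition was 1 library. Of 99 recomputed values, 48 moved by less than their interval or 1.5 times. Most of the 99 were counts or shares, which cannot change sign, and none of the log2 values changed sign. With equal numbers of regions, near equality of the changed classes is built in, and there were 16167 gained and 16604 lost regions. In this setting 645 genes had a promoter region in iPSCs alone against 882 in D16S+ alone, and the median log2 ratio was −0.439. Promoter shares of common, gained and lost regions were 34.9%, 14.7% and 16.1% (gained below lost, against 15.4% and 15.2% over all regions). Earlier calls were at 48.0% of gained and 70.2% of lost regions, and CAAGGTCA was in 2.95% of gained regions. With the stronger 50% of regions there were 18295 common, 11330 gained and 5910 lost regions, with −0.7, promoter shares of 45.2%, 16.3% and 21.4%, and earlier calls at 67.2% and 86.0%. With 1 common floor the ratio was −0.448 and earlier calls were at 46.9% and 69.1%. An overlap of 50% gave promoter shares of 16.1% for both changed classes and earlier calls at 47.8% and 69.2%, midpoints within 500 bp gave 16.4% of gained regions in promoters and 47.4% with earlier calls, and with X and Y 64.7% of lost regions had an earlier call. Unique summits gave promoter shares of 36.0%, 15.9% and 17.0%, earlier calls at 47.5% and 72.9%, and TGANTCA in 9.75% of lost regions. Fold enrichment in place of CPM gave −0.367 and a floor of 20 tags −0.691. Promoters of 1 kb held 8.7% of gained and 9.38% of lost regions, and protein-coding genes alone gave 30.5%, 12.8% and 12.2%. Windows of 100 bp gave CAAGGTCA in 1.36% of gained and 0.624% of lost regions and TGANTCA in 3.53% and 4.27%, and windows of 400 bp gave 4.7%, 2.45%, 12.4% and 13.7%. Outside promoters the chromosome medians ran from −0.428 to −0.328, and within height bins promoters differed from other regions by −0.00295. The cause of these moves was not tested, apart from those set by the construction (fewer regions, shorter or longer windows). Depth limits single genes most, since calls near 10 tags can be missed in either library.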

Other observations

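Changed regions were not spread evenly along chromosomes. The median 1 Mb window with a region held 10 common, 5 gained and 5 lost regions. The most gained regions fell on chr10:79000001-80000000 (147 gained and 23 lost), a window of 61 protein-coding genes, and on its neighbour chr10:80000001-81000000 (146 and 20), which holds Dot1l, the histone H3 lysine methyltransferase of transcribed genes. These chr10 windows also held 106 and 129 common regions, so that they were dense in regions of all classes. The next were chr4:140000001-141000000 (90 and 14), with the Padi genes, chr15:78000001-79000000 (89 and 7) and chr11:97000001-98000000 (80 and 8). Over unique regions these same 5 windows led, with 145, 144, 88, 89 and 80 gained regions.

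The most lost regions fell in windows of gene copies. These were chr17:6000001-7000000 with the Tmem181 and Dynlt1 copies (114 lost and 20 gained), chr4:146000001-147000000 (91 and 16), chr5:15000001-16000000 with Speer4 genes (73 and 1), chr8:19000001-20000000 with beta-defensin genes (68 and 12) and chr4:145000001-146000000 (66 and 15). Over unique regions no window held more than 23 lost regions, and none of these 5 was among the 5 highest. The chr10 windows named for gained regions were among those highest, with 23 and 20 lost beside 145 and 144 gained regions.

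The gained over lost ratio of single autosomes ran from 1.07 on chromosome 3 to 3.31 on chromosome 11, and over unique regions from 1.32 to 3.87 on the same chromosomes.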
